A study of Actinidia chinensis with 12 samples.

Results

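The tissue difference within Jinyan, a yellow-fleshed kiwifruit cultivar, was described across genes from 6 of the 12 libraries of the series. They comprised 3 libraries of the flesh core and 3 of whole fruit, chosen by the cultivar and tissue given in their labels. All 6 came from ripened Jinyan fruit harvested from the tree, with no treatment, and the species label is Actinidia chinensis throughout. The other 6 libraries are whole fruit and flesh core of Hongyang, a red-fleshed cultivar, also from ripened fruit and with 3 libraries each. No label gives the number of fruits, vines or pools behind a library, and the spread that p-values rest on may thus be technical.

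A kiwifruit is a berry. Under the skin lies the outer pericarp, then the inner pericarp, which holds the seeds in locules, and at the centre the pale columella or core, a column of large parenchyma cells with vascular strands. Jinyan was bred by crossing Actinidia eriantha with Actinidia chinensis. The labels call the comparison tissue whole fruit, which in the plain sense includes the core, whereas the design text of the series names the fruit periphery; the wording of the labels was kept. In bulk tissue, fewer cells of a type and less RNA per cell cannot be told apart.

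Expression was measured by RNA sequencing of poly(A) RNA, as counts of reads per gene. Whole fruit libraries held 6870519 to 10030539 counts and core libraries 16364341 to 18587778, 2.19 times as many on average, so depth went with tissue in the deposited counts, and the main counts were repeated at equal depth. Of 39040 gene identifiers, 19621 passed the filter on low counts and were tested, and 10885 had 0 counts in all 6 libraries. Levels are given as CPM, which are counts relative to the library total after TMM scaling. The table gives identifiers with no gene names, so tissue labels were not checked against marker genes, no function is assigned to any gene, and 2 genes that rose and 2 that fell are named, one of each by amount and one by fold. Only called genes without overlap between the Jinyan tissues could be named, so that choice fixed their call and separation in the main fit.

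Core and whole fruit of Jinyan differed in a large share of the genes tested. By edgeR's quasi-likelihood test, 6878 of 19621 genes differed at a Benjamini-Hochberg adjusted p under 0.05, which is 35.1%. In the core 3282 genes (16.7%) were higher and 3596 (18.3%) were lower. The sizes of the differences were unequal over all called genes, and closer within most classes of abundance, as given below. The genes higher in the core had a median log2 difference of 0.83, and 2089 of them were fitted at less than 2-fold, whereas the genes lower in the core had a median of -1.29, and only 1273 were fitted at less than 2-fold. All genes tested had a median of 0.00 (-0.0026).

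The largest differences lay on the lower side. If whole fruit held the core, as its label reads, rises in the core would be bounded and falls would not. How far this shaped the balance was not tested. Fitted differences of at least 4-fold were found for 992 lower and 386 higher genes, and of at least 8-fold for 476 and 199. Among them were 122 genes with 0 counts in the 3 core libraries and 29 with 0 counts in the 3 whole fruit libraries. With these set to their lower bound against 3 counts over the 3 libraries, the numbers at 4-fold and 8-fold and both medians were as before. A test of differences beyond 2-fold (edgeR's glmTreat, adjusted p under 0.05) called 1303 genes (6.64%), of which 904 (4.61%) were lower in the core and 399 (2.03%) higher. Lower genes outnumbered higher genes by this test in each of the 14 other settings in which it was run. With all 12 libraries in the fit it called 451 genes, 301 lower and 150 higher.

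**Figure D1:**
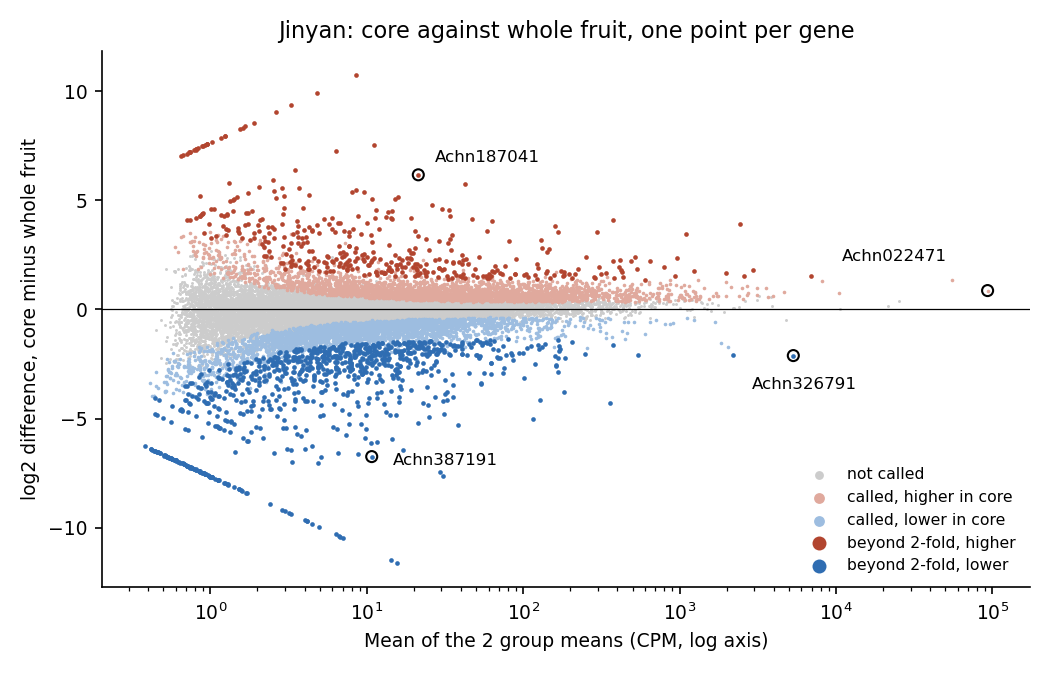
Each point is a gene tested in Jinyan, placed by the mean of its 2 group means (CPM, log axis) and its log2 difference of core minus whole fruit; grey genes were not called, pale genes were called, and dark genes passed the test beyond 2-fold. The 904 dark genes below the line spread further down and towards low abundance than the 399 above it, and the straight lines of points at the outer edges are genes with 0 counts in 1 tissue, whose fitted value is set by the prior count.

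How many genes were higher and how many lower depended on the scaling. TMM scaling centres the bulk of genes, and with it 47.7% of the calls were on the higher side. With library totals only, 7390 genes were called, 16.7% of them higher, and all genes tested then had a median of -0.38. Directions given for single genes are therefore relative to the median gene. The number of calls also depended on the libraries in the fit. With all 12 libraries, which share 1 estimate of spread and pass another set of genes through the filter, 3688 of 22199 genes (16.6%) were called, and 3427 of these were called in the same direction from the Jinyan libraries alone. The biological coefficient of variation, the relative spread between replicates beyond counting error, was 0.157 in Jinyan whole fruit and 0.224 in Jinyan core, against 0.479 in Hongyang whole fruit.

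The libraries of the 2 tissues were well separated. Replicates correlated at Spearman rho of 0.972 to 0.974 in whole fruit and 0.970 to 0.977 in core, and libraries of different tissues at 0.879 to 0.915. Each rho is taken across genes and carries no test. Among the core libraries, replicate 1 lay nearest to whole fruit (0.912 to 0.915), replicate 3 next (0.898 to 0.907) and replicate 2 farthest (0.879 to 0.886). Of the 6878 called genes, 6774 had no overlap in CPM between the 3 core and the 3 whole fruit libraries. Over all genes tested, 9767 (49.8%) had no overlap, of which 2993 were not called, and 35.1% were called.

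By amount, the largest gain in the core belonged to Achn022471, which was also the most abundant gene of the Jinyan libraries. In whole fruit it stood at 62039, 61809 and 73924 CPM in replicates 1, 2 and 3. In the core it stood at 81984, 142257 and 136488 CPM. By the choice of genes the 2 tissues did not overlap on this scale, and core replicate 1 lay closest to whole fruit. The means were 65924 ± 6929 CPM (SD, n = 3) in whole fruit and 120243 ± 33259 CPM (SD, n = 3) in core, a log2 difference of 0.87 ± 0.22 (SE; edgeR adjusted p = 0.0097). As a plain share of library counts, the gene took 7.19, 6.98 and 8.34% in whole fruit and 7.93, 11.4 and 11.8% in core. On that scale core replicate 1 lay within the whole fruit range. With library totals only the log2 difference was 0.46 (edgeR adjusted p = 0.047). The call was lost with all 12 libraries in the fit (edgeR adjusted p = 0.13) and without whole fruit replicate 1 (edgeR adjusted p = 0.054), in a range of 4.9e-05 to 0.13 over all settings.

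By fold, among genes with reads in every Jinyan library, the largest rise was that of Achn187041. It had 6, 2 and 8 counts in the whole fruit libraries, or 0.753, 0.234 and 0.707 CPM. The core libraries held 177, 888 and 782 counts of it, or 9.84, 67.6 and 48.9 CPM. Core replicate 1 was again the lowest of its group, and by the choice of genes it lay above every whole fruit library. The log2 difference was 6.17 ± 0.75 (SE), a 72.0-fold rise (edgeR adjusted p = 1.5e-04), and the gene passed the test beyond 2-fold as well (edgeR adjusted p = 6.7e-04). It stayed called in the 16 other settings, with log2 differences of 5.66 to 6.65.

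**Figure D2:**
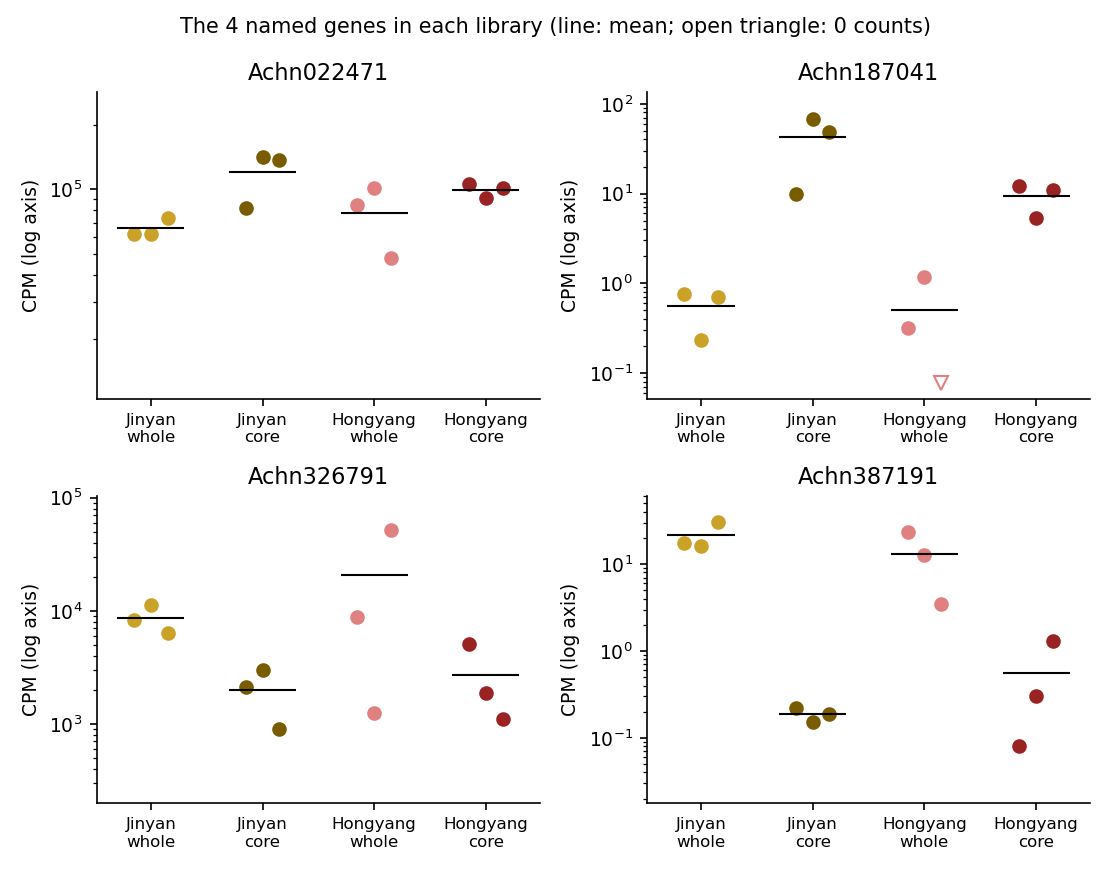
CPM (log axis) of the 4 named genes in each library of the 4 groups, with a line at the group mean and an open triangle for a library with 0 counts; the named genes were chosen on the Jinyan libraries. In each panel the Jinyan core and whole fruit points do not overlap, which the choice of genes required. In Hongyang, where nothing was required, the tissues overlap for Achn022471 and Achn326791.

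The largest loss by amount in the core was that of Achn326791. It stood at 8259, 11337 and 6377 CPM in whole fruit replicates 1, 2 and 3. In the core it stood at 2134, 2975 and 904 CPM. Every core library was below every whole fruit library, as the choice of genes required. The means were 8658 ± 2504 CPM (SD, n = 3) and 2004 ± 1042 CPM (SD, n = 3), a log2 difference of -2.11 ± 0.36 (SE; edgeR adjusted p = 0.0011). As a share of library counts it took 0.958, 1.28 and 0.719% in whole fruit and 0.206, 0.239 and 0.0779% in core, so the tissues were apart without TMM scaling too. The call was lost with all 12 libraries in the fit (edgeR adjusted p = 0.15), in a range of 1.1e-06 to 0.15 over all settings.

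By fold, among genes with reads in every Jinyan library, the deepest fall was that of Achn387191. Its whole fruit libraries held 141, 138 and 341 counts, or 17.7, 16.1 and 30.1 CPM. The deeper core libraries held 4, 2 and 3 counts, or 0.222, 0.152 and 0.188 CPM. The core libraries were nearly alike, and whole fruit replicate 3 was the highest. The log2 difference was -6.74 ± 0.39 (SE), a 107-fold difference (edgeR adjusted p = 2.5e-06), and it was -7.10 to -6.24 in the 16 other settings, in each of which the gene was called.

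The direction of the tissue difference went with abundance. Genes were grouped by the mean of their 2 group means. Among the 96 genes at 1000 CPM or more, 59 were called higher in the core and 7 lower. Among 1408 genes at 100 to 1000 CPM, 645 were higher and 132 lower. At 10 to 100 CPM, 1673 of 7722 genes were higher and 1450 lower, and at 1 to 10 CPM the order turned, with 842 of 9251 higher and 1745 lower. Under 1 CPM, 63 of 1144 genes were higher and 262 lower, but genes of this class could pass the filter through the tissue where they were high, so nothing is read from its split. The median log2 difference over all genes of a class was -0.47, -0.16, 0.08, 0.35 and 0.56 from the lowest to the highest class.

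Beyond 2-fold, the same turn was seen only in the upper classes. Of the genes at 1 to 10 CPM, 476 passed that test lower in the core and 175 higher, and at 10 to 100 CPM the numbers were 272 and 141. At 100 to 1000 CPM they were 27 lower and 48 higher, and at 1000 CPM or more 2 lower and 7 higher. Median log2 differences of the genes called higher and lower lay closer in size within most classes than over all called genes. They were 1.34 and -1.55 at 1 to 10 CPM and 0.73 and -0.86 at 10 to 100 CPM. At 100 to 1000 CPM they were 0.69 and -0.83. At 1000 CPM or more, where 7 genes were called lower, they were 0.72 and -1.52.

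From 1 CPM upwards the order of the class medians was the same in the other settings tried, while the class in which directions balanced moved with the scaling. With library totals only, the class medians ran from -0.83 through -0.53, -0.30 and -0.03 to 0.16, and 44.5% of the calls at 100 to 1000 CPM were on the higher side, where TMM scaling gave 83.0%. At 1000 CPM or more 67.5% were higher, against 89.4%. At equal depth 81.8% and 88.1% of called genes in these classes were higher. Under 1 CPM 33 genes were left, all of them called lower. Genes of this class could pass the filter only through the tissue where they were high, so nothing is read from that.

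A gene that is higher in the core is also moved up a class by its core level, so classes were set from the Hongyang libraries, which took no part in the comparison. Since tissue differences of Hongyang could enter such classes too, each tissue was used in turn, a choice made after seeing the data. With classes by Hongyang core, 80.0% of called genes at 100 to 1000 CPM and 91.4% at 1000 CPM or more were higher in the Jinyan core. With classes by Hongyang whole fruit the shares were 73.9% and 82.5%, and with the mean of both tissues 76.9% and 85.7%. At 10 to 100 CPM, where the split turned with the tissue used, they were 53.4, 46.9 and 50.1%, and at 1 to 10 CPM 34.1, 42.2 and 37.6%. The class under 1 CPM turned with the tissue used, from 11.7% higher by Hongyang core to 68.3% by Hongyang whole fruit.

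**Figure D3:**
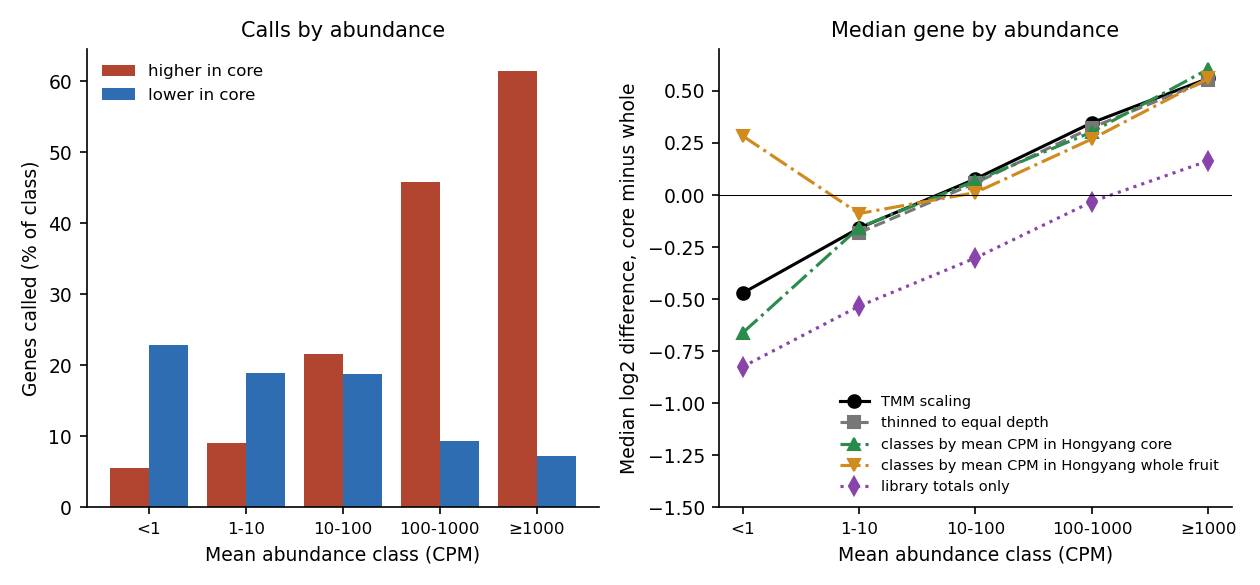
Left, the percentage of genes in each abundance class called higher or lower in the Jinyan core; right, the median log2 difference of core minus whole fruit over all genes of a class with TMM scaling, at equal depth, with classes set by Hongyang core or whole fruit, and with library totals only (classes under 50 genes are not drawn). Higher calls pass lower calls from 10 CPM upwards with TMM, and from 1 CPM upwards each line rises from left to right, with the library-total line lying below the others. Under 1 CPM the lines part, and the one by Hongyang whole fruit lies at 0.28.

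The called genes were traced as shares of all counts, which need no scaling factor. Since the sets were chosen on the Jinyan libraries, the Jinyan shares are a description. The genes higher in the core took 39.9, 38.4 and 41.3% of counts in the whole fruit libraries and 54.7, 59.4 and 57.3% in the core libraries. The lower genes took 14.1, 14.9 and 13.9% in whole fruit and 5.87, 4.60 and 4.90% in core. Core replicate 1 had the smallest share of higher genes and the largest share of lower genes in its group. The 2 most abundant genes took 10.6, 10.2 and 12.3% of counts in whole fruit and 13.6, 20.1 and 18.1% in core. With both left out of the total, the higher genes held 32.4% ± 0.812 (SD, n = 3) in whole fruit and 48.2% ± 0.921 (SD, n = 3) in core.

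**Figure D4:**
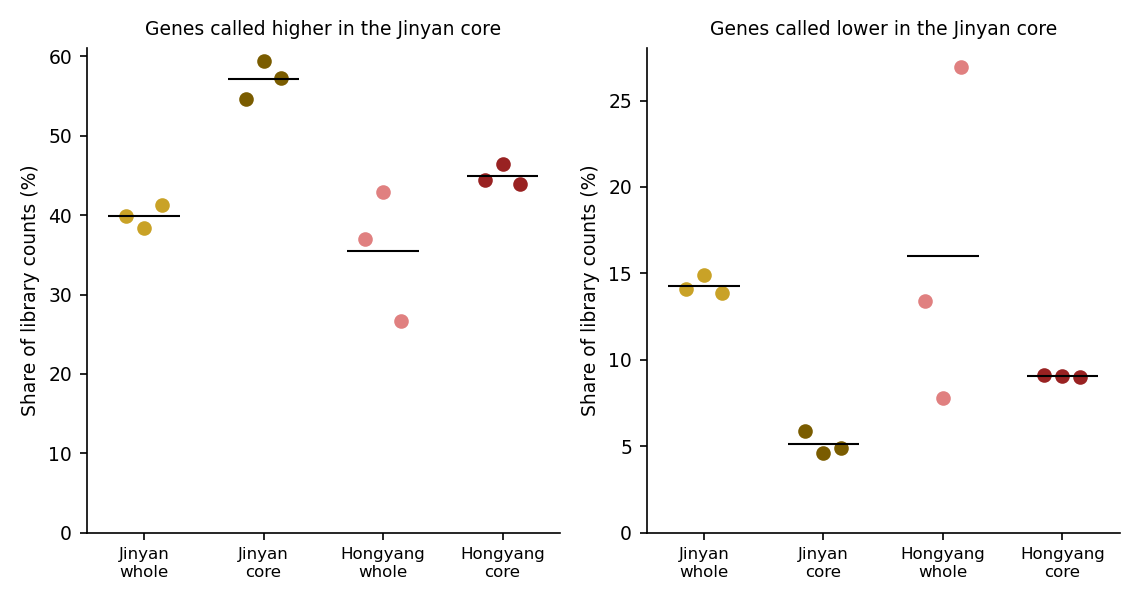
Share of each library's counts taken by the genes called higher (left) and lower (right) in the Jinyan core, with 1 point per library and a line at the group mean. The Jinyan groups are those on which the genes were chosen; Hongyang core lies at 43.9 to 46.4% and 9.01 to 9.15%, and the Hongyang whole fruit libraries spread from 26.7 to 42.9% and from 7.77 to 26.9%.

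Counts were also more concentrated in the core. The 100 most abundant genes of whole fruit held 35.6% ± 0.546 (SD, n = 3) of its counts and the 100 most abundant genes of core 42.8% ± 3.82 (SD, n = 3). For the 1000 most abundant genes the shares were 62.3% ± 0.254 (SD, n = 3) and 69.4% ± 2.49 (SD, n = 3). The libraries of the 2 tissues did not overlap in either share, and the smallest exact permutation p that 3 against 3 libraries allow is 0.1. The lists themselves were largely shared, with 84 of 100 and 836 of 1000 genes in common. Of the 116 genes in either list of 100, 70 were called higher in the core and 13 lower. Over all genes tested, 16.7% were called higher and 18.3% lower. A gene could enter a list through the tissue where it was high, so the split is a description only.

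Loss of detection ran mostly one way. Here too, a whole fruit sample that held the core could shift the balance, which was not tested. With at least 1 CPM on average in whole fruit (library totals), 211 genes had 0 counts in the 3 core libraries, although these were the deeper ones. The reverse, 0 counts in whole fruit and at least 1 CPM in core, held for 49 genes. At equal depth the numbers were 251 and 54. At 5 CPM or more 19 and 3 genes were left. A count of 0 allows a level of up to 0.0561 CPM over the core libraries and 0.123 CPM over the whole fruit libraries, by counting error only. Many of these genes did not pass the filter on low counts and were not tested, 94 of the 211 and 20 of the 49. That filter asks for enough counts in 3 libraries, so a mean of 1 CPM carried by fewer libraries could fail it. How evenly the counts of these genes lay over the 3 libraries was not tested. For the genes that were tested, the choice of genes fixes the direction.

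Most of these genes had at least 1 read in the same tissue of the other cultivar, but a minority reached 1 CPM there. Of the 211 genes without reads in Jinyan core, 54 had 0 counts in Hongyang core as well, and 38 reached at least 1 CPM there, while 95 reached 1 CPM in Hongyang whole fruit. Of the 49 genes without reads in Jinyan whole fruit, 8 had 0 counts in Hongyang whole fruit, 14 reached 1 CPM there, and 32 reached 1 CPM in Hongyang core.

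A core of calls held in every setting. In the 16 other settings (another scaling, filter, test or depth, a replicate block, halved counts, all 12 libraries, or 1 of the 6 libraries left out), 1801 genes were called each time in the same direction. They made up 26.2% of the 6878 called genes. Of these, 778 were higher in the core, with a median log2 difference of 1.19, and 1023 were lower, with a median of -1.51. No called gene was called in the opposite direction in any of these settings. The settings reuse the same Jinyan libraries, so they are not independent checks.

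**Figure D5:**
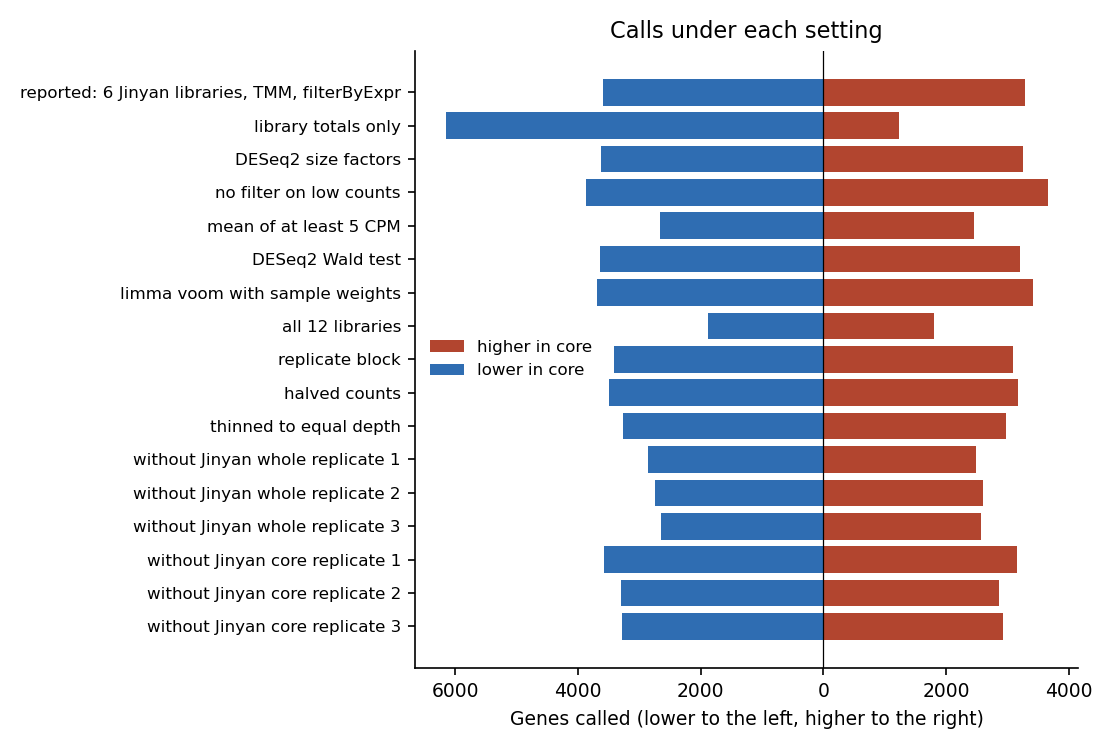
Genes called lower (left of 0) and higher (right of 0) in the Jinyan core under the reported setting and each of the 16 others. The total runs from 3688 with all 12 libraries to 7531 with no filter on low counts, and with library totals only 6159 genes are lower and 1231 higher.

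The Jinyan difference was also set beside the fitted values of the same tissues of Hongyang. The Hongyang whole fruit libraries stand apart from each other: replicate 3 held only 1888744 counts, and the share of counts in the genes lower in the Jinyan core was 13.4, 7.77 and 26.9% in replicates 1, 2 and 3. Fitted alone, the 6 Hongyang libraries gave 76 called genes of 20752 (0.366%). Hongyang medians are therefore also given without replicate 2 and without replicate 3.

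Of the 399 genes beyond 2-fold higher in the Jinyan core, 378 had a value in Hongyang. Of these, 88.6% were fitted higher in the core there too, and 2 were called higher. Among genes with a value, 93.4% were fitted higher without Hongyang replicate 2 and 83.2% without replicate 3. The median log2 difference of the 378 genes was 1.19 in Hongyang and 2.45 in Jinyan, where they were chosen. The Hongyang median was 1.84 without replicate 2 and 0.96 without replicate 3. Of the 904 genes beyond 2-fold lower, 753 had a value, of which 80.5% were fitted lower and 20 were called lower. Among genes with a value, 83.7% were fitted lower without Hongyang replicate 2 and 70.5% without replicate 3. The medians of the 753 genes were -0.87 in Hongyang and -2.51 in Jinyan. Without Hongyang replicate 2 and 3 the Hongyang medians were -1.27 and -0.34. The genes called at less than 2-fold in Jinyan had Hongyang medians of 0.28 for the higher and -0.23 for the lower ones. Without Hongyang replicate 2 these were 0.49 and -0.36, and without replicate 3 they were 0.11 and -0.08. All genes tested had a Hongyang median of 0.00 (0.0048), with 50.3% positive, and of 0.06 and -0.02 without replicate 2 and 3.

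The named genes differed in how far Hongyang followed. Achn187041 stood at 0.315, 1.18 and 0 CPM in Hongyang whole fruit and at 12.1, 5.32 and 10.9 CPM in Hongyang core, with no overlap. Achn387191 stood at 23.5, 12.6 and 3.46 CPM in whole fruit and at 0.0807, 0.307 and 1.31 CPM in core, also with no overlap. Neither passed in the Hongyang libraries alone (edgeR adjusted p = 0.072 and 0.090), where the log2 differences were 3.80 ± 0.69 (SE) and -4.50 ± 0.89 (SE). Achn326791 stood at 8824, 1239 and 51545 CPM in Hongyang whole fruit, where it took 6.31% of the counts of the shallow replicate 3, and at 5090, 1878 and 1105 CPM in core. These groups overlapped, as did those of Achn022471.

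The difference between the cultivars was itself tested over all 12 libraries, as an interaction equal to the Hongyang minus the Jinyan tissue difference. It passed for 500 of 22199 genes (2.25%) and for none of the 4 named genes. The interaction was -2.52 ± 1.15 (SE, log2) for Achn187041 (edgeR adjusted p = 0.27) and 2.19 ± 1.10 (SE) for Achn387191 (edgeR adjusted p = 0.32). For Achn022471 it was -0.57 ± 0.58 (SE; edgeR adjusted p = 0.65) and for Achn326791 -0.87 ± 1.28 (SE; edgeR adjusted p = 0.78). These values do not show that the cultivars were alike. Without Hongyang whole fruit replicate 3 the interaction of Achn326791 turned to 1.15.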

How the data were processed

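The authors' deposited table holds raw read counts per gene identifier, 1 column per library. The submitters' processing notes name Trimmomatic 0.36 and HISAT2 2.1.0. Not given in the sources used here are the genome build, its annotation, the program that counted reads and how it treated multiply aligned ones, and counts of near-identical gene copies are therefore uncertain. No strand-marking step appears in the labels' protocols, so overlapping and antisense genes cannot be told apart. Sequencer models were not tied to libraries, so no batch was examined.

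The 6 Jinyan libraries were fitted alone with edgeR 4.0.16 in R 4.3.3 (filterByExpr on the 2 groups, TMM, estimateDisp, glmQLFit, glmQLFTest; glmTreat at 2-fold), because the spread of Hongyang whole fruit was larger. The interaction used all 12. Standard errors are the absolute log2 fold change over the square root of F. Calls were two-sided, with p adjusted by Benjamini-Hochberg over all genes tested and a threshold of 0.05. Alternatives used limma 3.58.1 (voom with sample weights), DESeq2 1.42.0, other scalings and filters, counts halved because even numbers were in excess, and thinning to 6870519 counts. The fit was tested on simulated counts with the same spread in all groups, so its behaviour at unequal spread was not tested. Replicates of a group differed by more than sampling noise, with 5.76 to 41.7 for chi-square divided by its degrees of freedom. Named genes were, in each direction, the called gene without overlap and with at least 5 CPM in 1 tissue that had the largest difference of mean CPM, and that with the largest log2 difference among genes with reads in all 6 libraries. The comparison, tests and lists were chosen with earlier results of these data known. Lists of gene product names were not tested, since the identifiers carry no names. Limits set by a count of 0 reflect counting error alone and take counts as independent.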

Additional observations from a re-analysis of the deposited data

Results flagged for a closer look

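The tissue difference itself differed between the cultivars for 500 genes by the interaction test over all 12 libraries, 277 with the larger signed log2 difference in Hongyang and 223 with the larger in Jinyan. The number moved by more than 1.5 times in 10 of 12 omissions of a single library. Dropping Hongyang whole fruit replicate 1 gave 239 genes, and dropping its replicate 3 gave 1899. Dropping Hongyang core replicate 2 or 3 gave 157 or 192. Dropping a Jinyan whole fruit library, in the order of replicates 1 to 3, gave 168, 150 or 183, and dropping a Jinyan core library gave 211, 160 or 214. It was 733 and 491 without Hongyang whole fruit replicate 2 and Hongyang core replicate 1.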

How the results depend on the processing

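The number of genes called between Jinyan core and whole fruit was within 1.5 times of 6878 in 15 of 16 settings and 3688 with all 12 libraries in the fit; leaving out 1 library gave 5222 to 6736. The number beyond 2-fold was 742 at a mean of at least 5 CPM, where 12595 genes were tested, 451 with all 12 libraries, and 1015 to 1444 with 1 library left out. The share of called genes higher in the core was 16.7% with library totals only, 49.1% with all 12 libraries and 46.6 to 49.2% with 1 library left out. The interaction gave 150 to 1899 genes with 1 library left out, and that of Achn326791 ran from -1.71 to 1.15, the turn of sign from -0.87 coming without Hongyang whole fruit replicate 3. The median Hongyang difference of all genes called higher in Jinyan was 0.36, and 0.62 and 0.19 without Hongyang whole fruit replicate 2 and 3; for the lower genes it was -0.43, -0.65 and -0.17. These omissions were chosen after seeing the data. The cause of these shifts was not tested.

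No pairing of the tissues by replicate number was seen across genes, though 3 libraries per tissue cannot exclude it. Deviations from the group means correlated at -0.02, -0.03 and 0.06 for numbers 1, 2 and 3, and only core replicate 3 correlated best with its own number. With the replicate number as a block 6518 genes were called, 1124 of them beyond 2-fold, and the interaction gave 438 genes. The block lowered the SE of each named gene in Jinyan. It went from 0.22 to 0.17 for Achn022471 and from 0.75 to 0.48 for Achn187041. For Achn326791 it went from 0.36 to 0.19 and for Achn387191 from 0.39 to 0.31. At equal depth 6241 genes were called. Depth limits the class under 1 CPM, of which 33 genes passed the filter at equal depth against 1144 as deposited.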

Other observations

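Genes with neighbouring identifier numbers were called together somewhat more often than the rest. All identifiers end in 1, so neighbours differ by 10. In 10786 pairs of tested neighbours, the next gene was called higher in the core in 20.7% of cases after a higher gene, against 16.8% over all pairs. It was called lower in 24.4% of cases after a lower gene, against 18.2%. At 100 places apart the shares were 17.1% and 17.7%. Unbroken runs of at least 3 neighbours called in 1 direction numbered 40 for higher genes and 61 for lower genes, the longest with 5 genes in each direction. No source used here says whether the numbering follows the genome, and the part of reads shared between similar copies was not tested. This comparison was chosen after seeing the data.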
